A study of Pinellia ternata with 6 samples.

Results

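The levels of 5 unigenes of sulfur and methionine metabolism of *Pinellia ternata*, a medicinal aroid, were compared between T2Plus line and T2 line, out of 62591 unigenes in the table analysed. A unigene is a gene as put together from the reads by the assembler, without a genome. The 5 were picked from the study's own lists of differentially expressed unigenes for sulfur starvation response, sulfur metabolism, cysteine and methionine metabolism, and methionine salvage, with 1 steeply higher and 4 lower in T2Plus line. They were therefore chosen on the contrast between the lines, and their differences are given as a description, with no test. T2Plus line (16x, 2n = 208) was made from T2 line by doubling its chromosomes with colchicine, and T2 line (8x, 2n = 104), a natural octoploid raised from a single plant, was the control. Seedlings of both lines were collected at 30 days, 5 seedlings of a group were mixed, and 3 samples of each line were sequenced. The study describes the samples as biological replicates that were independent, but not whether each had a mix of its own, so a p-value here reflects only how far these samples spread, and part of that spread may be technical.

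Plants take sulfur up as sulfate, reduce it to sulfide and fix it in cysteine, and this route is called sulfate assimilation. Cysteine gives its sulfur to methionine, and methionine is activated to S-adenosylmethionine, the methyl donor of the cell and the source of ethylene and polyamines. Ethylene and polyamine synthesis release methylthioadenosine, which the methionine salvage cycle turns back into methionine, so that its sulfur is kept. Ethylene drives the ripening of climacteric fruit, and sulfur shortage induces sulfate transporters and assimilation genes in Arabidopsis. Glucosinolates are sulfur-rich defence compounds of the cabbage order, to which *P. ternata* does not belong, so a glucosinolate term names what the best-matching gene does in another plant.

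The unigenes are identified here by their cluster number in the assembly and by the study's terms, since the protein names at hand do not include them. DN37 (TRINITY_DN37_c1_g1) was listed under cellular response to sulfur starvation and regulation of glucosinolate biosynthesis. DN13448 (TRINITY_DN13448_c0_g1) was listed under sulfur metabolism, sulfate assimilation and cellular response to sulfate starvation. DN5836 (TRINITY_DN5836_c0_g1) was listed under cysteine and methionine metabolism and methionine biosynthesis. DN13942 (TRINITY_DN13942_c0_g2) was listed under methionine biosynthesis and methionine salvage from methylthioadenosine. DN16038 (TRINITY_DN16038_c0_g1), the only one of the 5 with a higher level in T2Plus line, was listed under cysteine and methionine metabolism and fruit ripening. Which enzyme or regulator each one encodes is not given in the sources used here.

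Levels are in FPKM, read fragments set relative to the length of the transcript and to all fragments mapped, as the authors deposited them for each transcript isoform, and isoforms were summed per unigene. The table covers a portion of the assembly, so ranks and shares are within it, and isoforms outside it were not analysed here. FPKM is a level per length, so unigenes can be set beside each other. The summed FPKM was 527915 to 535112 in T2Plus samples and 564456 to 626556 in T2 samples. Replicate 2 of T2 line stood apart from the rest. Its 100 strongest unigenes held 19.5% of the summed FPKM, against 14.7% to 15.8% in the other samples, and 28177 unigenes were above 0 in it, the fewest of the 6 samples. Read totals are not part of these values. Relative to 1 read in T2 replicate 1, a read was worth 0.740 in that library and 0.931 to 1.12 in the remaining ones. This worth reflects the depth and the scaling of a sample together. The study's own counts of clean reads were also highest for T2 replicate 2, so it was the deepest. Among the 925 unigenes with a T2 mean of at least 100 FPKM, its level over the mean of T2 replicates 1 and 3 had a median of 1.27, with quartiles of 1.03 and 1.49.

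DN37, the sulfur starvation unigene, showed the largest gap among the 4 that were lower in T2Plus line. It stood at 7.58, 7.59 and 9.29 FPKM in T2Plus replicates 1, 2 and 3, against 480, 784 and 489 FPKM in T2 replicates 1, 2 and 3. In T2 line it was among the strongest transcripts analysed, at rank 91, 60 and 89 of the unigenes in the table, whereas it ranked 11862, 11400 and 9868 in T2Plus samples. Its mean was 8.15 ± 0.986 FPKM in T2Plus line and 584 ± 173 FPKM in T2 line (SD, n = 3 each), so the T2 mean was 71.7 times the T2Plus mean. The difference on the log2(FPKM + 1) scale was -5.97 with a standard error of 0.21, the 10th most negative among the 28536 unigenes tested. In mixed seedling tissue, fewer cells of a type and less RNA per cell cannot be told apart. The high T2 value was that of replicate 2, at 1.62 times the mean of the other T2 replicates, and without that sample the difference was -5.74.

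DN37 was set beside the strongest unigenes of T2 line, with limits chosen after the values were seen. A level of at least 100 FPKM in every T2 sample was found for 743 unigenes, of which 740 were above 0 in every T2Plus sample. In 14 of these the T2 mean was over 10 times the T2Plus mean, and DN37 was the only one over 50 times. The next was TRINITY_DN5539_c0_g1 at 31.0 times, and the third, at 26.4 times, was DN722 (TRINITY_DN722_c1_g1), which the study lists under the same sulfur starvation and glucosinolate terms as DN37. DN5836 was the 13th of the 14, at 16.0 times, and TRINITY_DN12265_c1_g1 the last, at 11.1 times.

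DN5836, one of the unigenes of methionine biosynthesis, had 14.0, 10.6 and 15.7 FPKM in T2Plus replicates 1, 2 and 3, against 200, 256 and 186 FPKM in T2 replicates 1, 2 and 3. Every T2 sample was over 10 times the highest T2Plus sample. The means were 13.4 ± 2.62 FPKM in T2Plus line and 214 ± 37.2 FPKM in T2 line (SD, n = 3 each), with a difference of -3.90 on the log2 scale and a standard error of 0.19. It ranked 7513, 9024 and 6693 in T2Plus samples and 334, 319 and 355 in T2 samples.

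DN13942, the unigene of methionine salvage, was the most strongly expressed of the 5 in T2Plus line and also the steadiest there. Its level was 70.5, 68.8 and 68.8 FPKM in T2Plus replicates 1, 2 and 3, against 224, 334 and 244 FPKM in T2 replicates 1, 2 and 3. The means were 69.4 ± 1.03 FPKM in T2Plus line and 267 ± 58.6 FPKM in T2 line (SD, n = 3 each). The T2 mean was 3.85 times the T2Plus mean, the smallest gap of the 5, and the difference on the log2 scale was -1.91 with a standard error of 0.16. Without replicate 2 of T2 line it was -1.74. Its coefficient of variation over replicates was 1.48% in T2Plus line and 21.9% in T2 line. Among unigenes with a line mean of at least 50 FPKM, the median coefficient was 7.15% over 1986 unigenes in T2Plus line and 16.9% over 2234 unigenes in T2 line. In T2Plus line 3.47% of these unigenes had a coefficient of 1.5% or less, a limit set after the values were seen.

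DN13448, the unigene of sulfate assimilation, had its wider spread in T2Plus line, where its level was low. It stood at 8.45, 6.42 and 9.62 FPKM in T2Plus replicates 1, 2 and 3, against 52.9, 54.2 and 53.0 FPKM in T2 replicates 1, 2 and 3. The coefficient of variation was 19.9% in T2Plus line, at a mean of 8.17 FPKM, and 1.38% in T2 line, at a mean of 53.4 FPKM. Level and line cannot be told apart in this, as the background was taken only from 50 FPKM upward. In T2 line a coefficient of 1.5% or less was found for 1.07% of unigenes at or above a mean of 50 FPKM. The limit of 1.5% was set after the values were seen. Replicate 2 of T2 line, at 1.02 times the mean of the other T2 replicates, was not raised for this unigene. The means were 8.17 ± 1.62 FPKM in T2Plus line and 53.4 ± 0.736 FPKM in T2 line (SD, n = 3 each), the T2 mean was 6.54 times the T2Plus mean, and the difference on the log2 scale was -2.59 with a standard error of 0.17.

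None of the 5 unigenes overlapped between the lines. Of all unigenes tested, 16.4% lay lower in every T2Plus sample than in every T2 sample and 19.5% lay higher, but the 5 were chosen on this contrast, so nothing is read from their count beside these shares.

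**Figure D1:**
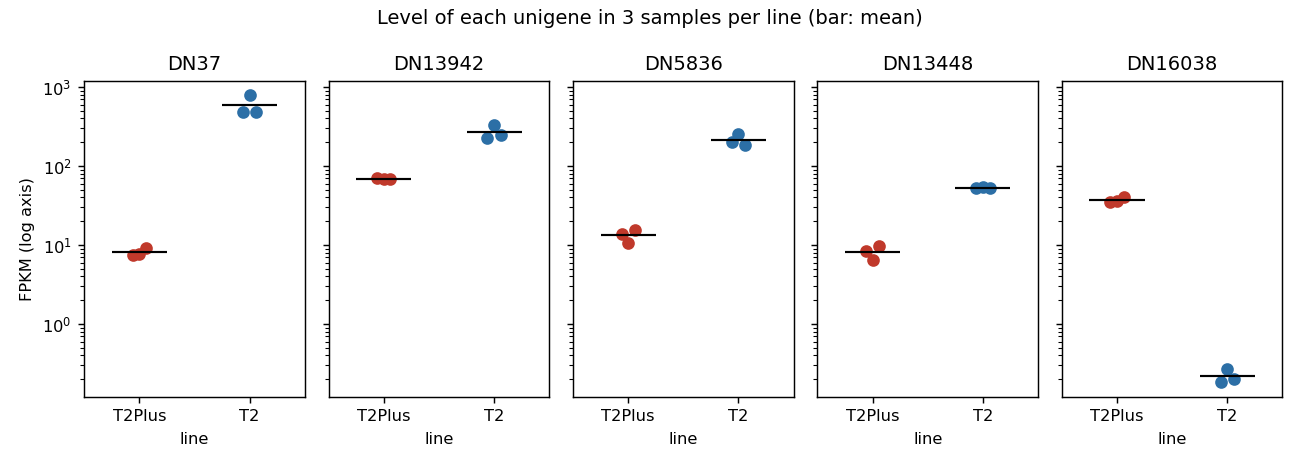
FPKM (log axis) of the 5 unigenes in the 3 T2Plus samples (red) and the 3 T2 samples (blue), with a bar at the mean. In each panel the lines do not overlap: DN37, DN13942, DN5836 and DN13448 lie lower in T2Plus line, and DN16038 stands at 35.2 to 40.0 FPKM in T2Plus samples against 0.182 to 0.270 FPKM in T2 samples.

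DN16038, the unigene of cysteine and methionine metabolism that also carries the fruit ripening term, was the one far higher in T2Plus line. It had 35.2, 36.3 and 40.0 FPKM in T2Plus replicates 1, 2 and 3, against 0.182, 0.270 and 0.204 FPKM in T2 replicates 1, 2 and 3. It was well expressed in every T2Plus sample, at rank 3210, 3100 and 2768, and close to the limit of detection in every T2 sample, at rank 30908, 27542 and 30673. The means were 37.2 ± 2.55 FPKM in T2Plus line and 0.219 ± 0.0458 FPKM in T2 line (SD, n = 3 each), a ratio of 170. On the log2(FPKM + 1) scale the difference was 4.97 with a standard error of 0.22, which understates the change because the added 1 exceeds the T2 level. It passed the filter of at least 1 FPKM in at least 3 samples only through T2Plus line, so among the unigenes kept it had to differ.

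The T2 values of DN16038 rest on very few reads. Divided by the relative worth of 1 read, they stood to each other as 1.00, 2.01 and 1.00 in T2 replicates 1, 2 and 3, and the T2Plus values at 207, 181 and 209 on the same scale. How many reads 1 unit stands for was not recoverable, since transcript lengths are not in the values. If it is 1 read, the lines held 597 and 4 reads in all, in T2Plus line and T2 line. The ratio after correction for the worth of a read was 165 with a 95% exact (Clopper-Pearson) interval of 64.2 to 609. The interval covers counting error only and not the spread between samples, since reads were pooled over the replicates. Reads copied by PCR are also not independent molecules. As DN16038 was chosen on this contrast, the interval describes these reads and is not a test of the difference.

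Levels of at least 30 FPKM in every T2Plus sample were found for 2878 unigenes, and 25 of these had a T2 mean under 0.5 FPKM, with both limits again chosen after the values were seen. Of the 25, 18 had a listed value of 0 throughout T2 line, and DN16038 was among the 3 with a value above 0 in every T2 sample. The other 2 were TRINITY_DN18150_c0_g1, at 51.9, 47.2 and 53.9 FPKM in T2Plus replicates 1, 2 and 3 against 0.659, 0.169 and 0.499 FPKM in T2 replicates 1, 2 and 3, and TRINITY_DN3628_c0_g2. DN3628 had 64.7, 59.7 and 66.5 FPKM in T2Plus replicates and 0.527, 0.416 and 0.478 FPKM in T2 replicates.

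The order of the 5 unigenes differed between the lines. In T2Plus line it was DN13942, DN16038, DN5836 and then DN13448 and DN37, whose ranges overlapped at 6.42 to 9.62 and 7.58 to 9.29 FPKM. In T2 line it was DN37, DN13942, DN5836, DN13448 and DN16038, and the ranges of DN13942 and DN5836 overlapped at 224 to 334 and 186 to 256 FPKM. DN37 over DN13942 was 0.107, 0.1104 and 0.135 in T2Plus replicates 1, 2 and 3, against 2.15, 2.35 and 2.01 in T2 replicates 1, 2 and 3. The starvation-response unigene was thus the lower of the pair in every T2Plus sample and the higher in every T2 sample. DN16038 over DN5836, both of cysteine and methionine metabolism, was 2.52, 3.43 and 2.55 in T2Plus replicates 1, 2 and 3, against 0.000912, 0.00105 and 0.00110 in T2 replicates 1, 2 and 3. DN5836 over DN13942, a ratio within methionine biosynthesis, was 0.154 to 0.228 in T2Plus samples and 0.763 to 0.892 in T2 samples. Such ratios do not depend on the scaling of a sample.

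**Figure D2:**
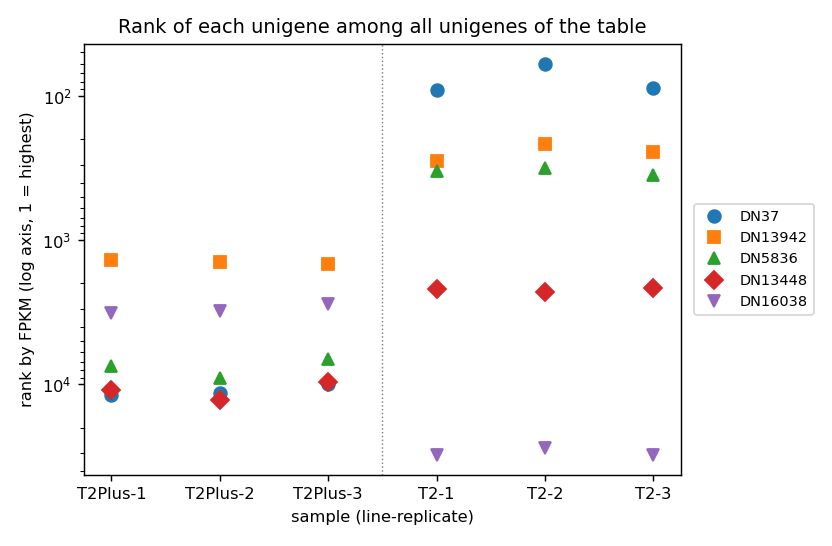
Rank of each of the 5 unigenes by FPKM among all unigenes of the table (log axis, rank 1 at the top), by sample, with T2Plus samples left of the dotted line and T2 samples right of it. DN37 lies between rank 9868 and 11862 in T2Plus samples and between rank 60 and 91 in T2 samples, and DN16038 is the only one ranked higher in T2Plus samples.

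Together the 4 lower unigenes summed to 100.5, 93.3 and 103.4 FPKM in T2Plus replicates 1, 2 and 3, against 957, 1428 and 972 FPKM in T2 replicates 1, 2 and 3. Their share of the summed FPKM was 0.0186% ± 0.000840 in T2Plus line and 0.190% ± 0.0331 in T2 line (SD, n = 3 each). DN37 alone made up 0.00153% of that sum in T2Plus line and 0.0989% in T2 line. 

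The amount of green tissue can differ between mixes of seedlings, and chloroplast proteins by Swiss-Prot name were followed for this. Their 27 unigenes held 0.558%, 0.588% and 0.673% of the summed FPKM in T2Plus replicates 1, 2 and 3, against 0.748%, 0.882% and 0.745% in T2 replicates 1, 2 and 3. The groups did not overlap, with sums of 2983 to 3599 FPKM in T2Plus samples and 4212 to 5526 FPKM in T2 samples. Of the 25 tested, 4 fell, 0 rose and 21 were not called in T2Plus line, where 6.3% of all unigenes tested fell and 7.22% rose. With only 25 unigenes, these counts were not tested against those shares. Their median log2 difference was -0.28, against 0.10 over all. Less green tissue and less of this RNA per green cell cannot be told apart in mixed seedling tissue. The part of this in the levels of the 5 unigenes was not tested.

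**Figure D3:**
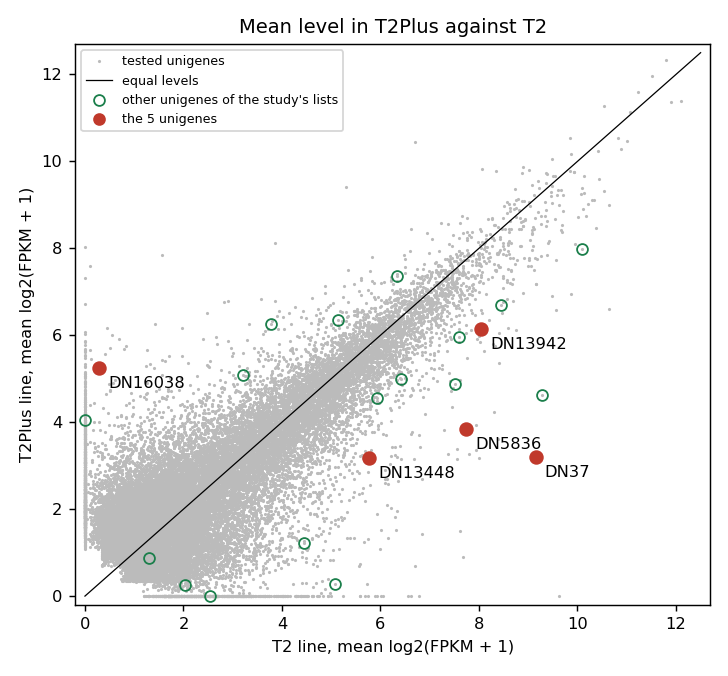
Mean log2(FPKM + 1) in T2Plus line (vertical axis) against T2 line (horizontal axis) for the 28536 unigenes tested (grey), the 5 unigenes (red) and the other tested unigenes of the study's lists (green rings), with a line of equal levels. DN37, DN5836, DN13448 and DN13942 lie under the line at moderate to high T2 levels, and DN16038 lies above it near the left edge.

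Sister unigenes, which the assembler placed in the same cluster and which may be related copies or pieces of one transcript, were not used in the choice of the 5. There were 4 of them, 1 for DN37, 1 for DN5836 and 2 for DN13942, with none in the table for DN13448 and DN16038. Of these, 2 were strong enough to be tested. With limma 0 of them were called and 0 had an unadjusted p under 0.05, where 13.5% of all unigenes tested were called. The sister of DN37, TRINITY_DN37_c0_g1, had 4.198, 7.11 and 4.38 FPKM in T2Plus replicates 1, 2 and 3, against 4.94, 7.97 and 9.21 FPKM in T2 replicates 1, 2 and 3. The groups overlapped, and the difference was -0.42 on the log2 scale with a standard error of 0.32 (limma, Benjamini-Hochberg adjusted p = 0.463). Both stood under 10 FPKM in every T2Plus sample, whereas in T2 line the sister stayed under 10 FPKM and DN37 did not.

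A higher level in every T2Plus sample than in every T2 sample was seen for 19.5% of all unigenes tested. One sister of DN13942, TRINITY_DN13942_c3_g1, was among them, opposite to DN13942 itself. It had 9.61, 8.03 and 5.72 FPKM in T2Plus replicates 1, 2 and 3, against 4.24, 0.450 and 4.76 FPKM in T2 replicates 1, 2 and 3. The low T2 value was that of replicate 2, the library that stood apart. The difference was 1.29 on the log2 scale with a standard error of 0.58 and did not pass the test (limma, Benjamini-Hochberg adjusted p = 0.199), and without that sample it was 0.65 (adjusted p = 0.184). The other sister, TRINITY_DN13942_c1_g1, was at 0.353, 1.26 and 0 FPKM in T2Plus replicates and 0.385, 0 and 0.855 FPKM in T2 replicates, too low to be tested. TRINITY_DN5836_c0_g3, the sister of DN5836, was above 0 only in T2Plus replicate 1, at 13.7 FPKM, and in T2 replicate 3, at 8.70 FPKM, and was not tested. Each of the 5 unigenes had 1 isoform row in the table, so shares of isoforms could not be compared. Their isoform numbers in the assembly run up to 10, so a level given here may be that of 1 isoform and not of the whole unigene.

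The study's lists on sulfur, methionine and fruit ripening held 40 further unigenes, of which 18 were in the table and 17 were tested. In T2Plus line 5 rose, 11 fell and 1 was not called, where 7.22% of all unigenes tested rose and 6.3% fell. The lists were drawn by the study from its own calls on these samples, so that nearly all of them pass is not independent evidence of a direction. For the same reason, the adjusted p-values given for these unigenes in the next paragraphs are a description and not an independent test. Their median log2 difference was -1.63, against 0.10 over all unigenes tested. The fruit ripening list gave 5 of the 17, and without it 3 rose, 8 fell and 1 was not called. Another limit is that 4 of the 17 passed the filter through 1 line only and so had to differ, and without these 4 rose and 8 fell. Without replicate 2 of T2 line the counts were 5 and 11 as well.

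The list for cellular response to sulfur starvation held 3 unigenes beside DN37, and all 3 fell. DN722 had 19.6, 23.5 and 28.1 FPKM in T2Plus replicates 1, 2 and 3, against 545, 780 and 556 FPKM in T2 replicates 1, 2 and 3, at a level in T2 line like that of DN37. The difference was -4.66 on the log2 scale with a standard error of 0.19 (limma, adjusted p = 1.18e-04). DN2562 (TRINITY_DN2562_c0_g1), which shares the glucosinolate term with DN37 and DN722, had 96.6, 100.2 and 110 FPKM in T2Plus replicates against 307, 432 and 318 FPKM in T2 replicates. Its fall was much smaller, at -1.76 with a standard error of 0.15 (adjusted p = 0.00121). TRINITY_DN8085_c0_g1 was weakly expressed, at 0, 0.707 and 0 FPKM in T2Plus replicates and 5.13, 1.90 and 2.88 FPKM in T2 replicates. It passed the filter only through T2 line, so it had to differ, and even so its difference of -1.78 lost the call in 8 of 14 other settings, among them each T2Plus replicate and T2 replicates 1 and 3 left out.

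In sulfate assimilation and sulfur metabolism, 2 unigenes beside DN13448 were in the table and both fell. DN2409 (TRINITY_DN2409_c5_g1), of sulfate assimilation, was among the strongest of all the unigenes named here, with 243, 244 and 270 FPKM in T2Plus replicates 1, 2 and 3, against 962, 1373 and 980 FPKM in T2 replicates 1, 2 and 3. Its difference was -2.11 on the log2 scale with a standard error of 0.15 (limma, adjusted p = 8.05e-04). DN43925 (TRINITY_DN43925_c0_g1), listed both there and under cysteine and methionine metabolism, had 21.5, 26.3 and 20.0 FPKM in T2Plus replicates and 60.3, 71.0 and 49.4 FPKM in T2 replicates, a difference of -1.37 (adjusted p = 0.00426). The sulfate starvation list held 2 unigenes beside DN13448, and neither was analysed here.

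On the list for sulfate transport, the uptake step, 3 unigenes were tested, of which 2 rose and 1 fell. DN8549 (TRINITY_DN8549_c0_g1) fell, with 60.2, 57.5 and 66.4 FPKM in T2Plus replicates 1, 2 and 3, against 192, 183 and 200 FPKM in T2 replicates 1, 2 and 3 (-1.63 on the log2 scale, SE 0.09, limma, adjusted p = 3.51e-04). DN12396 (TRINITY_DN12396_c0_g2) rose, with 149, 170 and 171 FPKM in T2Plus replicates and 82.3, 79.0 and 77.2 FPKM in T2 replicates (1.03, SE 0.09, adjusted p = 0.00149). This rise was only just 2-fold and missed that limit without T2Plus replicate 2, at 1.00, or T2Plus replicate 3, at 0.99. DN50030 (TRINITY_DN50030_c0_g1) had 15.7, 16.8 and 14.2 FPKM in T2Plus replicates and was listed at 0 in every T2 sample. It passed the filter only through T2Plus line, so it had to differ. On the list for sulfolipid biosynthesis, which makes a sulfur-containing lipid of chloroplast membranes, DN3805 (TRINITY_DN3805_c0_g1) had 23.5, 28.3 and 33.8 FPKM in T2Plus replicates and 173, 214 and 159 FPKM in T2 replicates. It fell by 2.64 on the log2 scale (adjusted p = 5.55e-04). On the list for transport of sulfur amino acids, TRINITY_DN2641_c0_g1 was at 0 in every T2Plus sample and at 6.30, 17.1 and 0 FPKM in T2 replicates 1, 2 and 3, and was not tested.

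On the methionine biosynthesis list 1 of the 2 tested beside DN5836 and DN13942 rose and 1 fell, and the 1 tested on the salvage list fell. DN23596 (TRINITY_DN23596_c0_g1), which shares the salvage term with DN13942, fell, with 31.1, 29.6 and 32.5 FPKM in T2Plus replicates 1, 2 and 3, against 84.1, 95.3 and 74.6 FPKM in T2 replicates 1, 2 and 3 (-1.41 on the log2 scale, SE 0.12, limma, adjusted p = 0.00126). DN21878 (TRINITY_DN21878_c0_g1), which shares methionine biosynthesis and cysteine and methionine metabolism with DN5836, rose, with 80.6, 85.3 and 75.6 FPKM in T2Plus replicates and 37.8, 29.8 and 35.4 FPKM in T2 replicates (1.21, SE 0.12, adjusted p = 0.00211). The pair DN5836 and DN21878 thus carried the same terms and lay on opposite sides. On the list for biosynthesis of sulfur amino acids, which also holds DN5836 and DN13942, DN21878 rose and DN23596, DN2409 and DN43925 fell. DN4080 (TRINITY_DN4080_c0_g2), also of cysteine and methionine metabolism, was near 1 FPKM in both lines and overlapped between them (-0.42, adjusted p = 0.496).

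The fruit ripening list held 5 tested unigenes beside DN16038, of which 2 rose and 3 fell. DN29975 (TRINITY_DN29975_c0_g1) rose, with 76.1, 65.0 and 87.0 FPKM in T2Plus replicates 1, 2 and 3, against 15.7, 15.9 and 8.02 FPKM in T2 replicates 1, 2 and 3 (2.48 on the log2 scale, limma, adjusted p = 0.00270). DN26570 (TRINITY_DN26570_c1_g1) rose as well, at 29.6 to 37.0 FPKM in T2Plus samples and 6.50 to 9.68 FPKM in T2 samples (1.88, adjusted p = 0.00211). DN7401 (TRINITY_DN7401_c0_g2) was at or near 0 in T2Plus line, at 0, 0 and 0.757 FPKM in T2Plus replicates and 32.4, 42.5 and 25.8 FPKM in T2 replicates (-4.81). DN13317 (TRINITY_DN13317_c0_g1) fell, at 1.03 to 1.69 FPKM in T2Plus samples and 18.6 to 25.7 FPKM in T2 samples (-3.24, adjusted p = 9.79e-04). DN43234 (TRINITY_DN43234_c0_g1) was listed at 0 in every T2Plus sample and at 3.53 to 5.78 FPKM in T2 samples. DN7401 and DN43234 passed the filter only through T2 line, so they had to differ, and without them 2 rose and 1 fell.

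**Figure D4:**
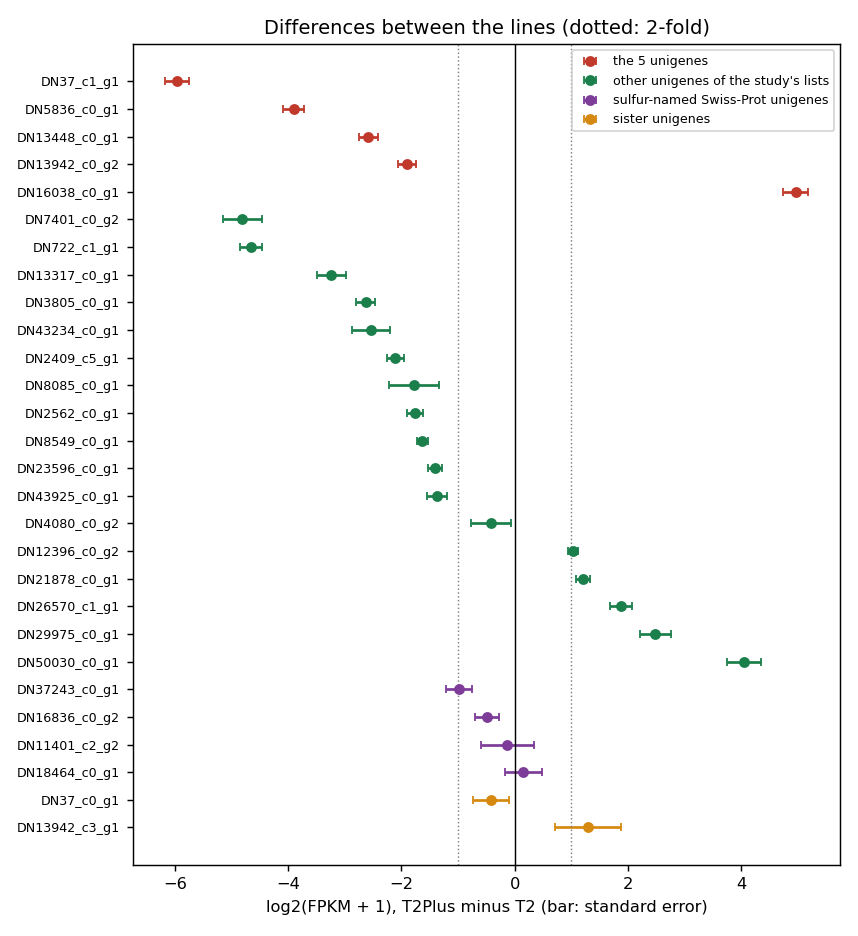
Difference in mean log2(FPKM + 1), T2Plus minus T2, with its standard error, for the 5 unigenes (red), the other tested unigenes of the study's lists (green), the sulfur-named Swiss-Prot unigenes (purple) and the tested sister unigenes (orange), with dotted lines at a 2-fold change. The 5 unigenes run from -5.97 to 4.97, while the Swiss-Prot unigenes run from -0.98 to 0.15.

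Sulfur proteins picked by name and not from the study's calls were also followed. Of 12 unigenes with a Swiss-Prot name for a sulfur, thiol or iron-sulfur protein, 4 were in the table, and with limma 0 were called and 1 had an unadjusted p under 0.05. Over all unigenes tested, 13.5% were called and 29.8% had such a p, so with 4 unigenes these counts are near the background. Their median log2 difference was -0.31. Glutaredoxin-C2 (TRINITY_DN37243_c0_g1), a thiol reductase that works with glutathione, had 8.76, 10.4 and 11.1 FPKM in T2Plus replicates 1, 2 and 3, against 15.2, 23.5 and 25.05 FPKM in T2 replicates 1, 2 and 3. Its difference of -0.98 with a standard error of 0.23 (limma, adjusted p = 0.0298) was just short of 2-fold. Without T2 replicate 1 it passed, at -1.20, but without any other single sample the limma adjusted p was 0.0683 to 0.111. HscB (TRINITY_DN16836_c0_g2), a co-chaperone of iron-sulfur cluster assembly, had 6.77 to 8.64 FPKM in T2Plus samples and 9.45 to 13.8 FPKM in T2 samples (-0.49, adjusted p = 0.185). Glutathione S-transferase U17 (TRINITY_DN18464_c0_g1; 0.15, adjusted p = 0.8004) and frataxin (TRINITY_DN11401_c2_g2; -0.13, adjusted p = 0.883), a mitochondrial protein of iron-sulfur cluster assembly, overlapped between the lines.

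The unigenes most like each of the 5 over the 6 samples were found by Pearson's r on log2(FPKM + 1), as a description. With the samples in separate groups, r mostly follows the gap between the lines, and 189 to 490 unigenes had an r of at least 0.99 with each of the 5. DN37 was followed most closely by TRINITY_DN2631_c0_g1 (r = 0.99988), with 28.5 to 32.0 FPKM in T2Plus samples and 157 to 193 FPKM in T2 samples, and then by TRINITY_DN3308_c0_g4. The closest to DN13448 was TRINITY_DN15668_c0_g2 (r = 0.99945), at 0.547 to 2.58 FPKM in T2Plus samples and 68.4 to 71.2 FPKM in T2 samples, and the next was TRINITY_DN81105_c0_g1. DN5836 was followed by DN13317 of the fruit ripening list (r = 0.99957) and by TRINITY_DN1882_c0_g1. For DN13942 the closest were TRINITY_DN24533_c0_g1 (r = 0.99966), at 269.7 to 276.7 FPKM in T2Plus samples and 854 to 1242 FPKM in T2 samples, and TRINITY_DN16441_c1_g1. Nearest to DN16038 were TRINITY_DN521_c1_g1 (r = 0.99989), at 58.4 to 71.4 FPKM in T2Plus samples, and TRINITY_DN29449_c0_g1, at 21.5 to 26.5 FPKM there, both listed at 0 in every T2 sample.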

How the data were processed

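Seedling RNA of 3 T2Plus and 3 T2 samples was sequenced. The authors trimmed reads with Trimmomatic 0.36, checked them with FastQC 0.11.5, assembled them with Trinity at a k-mer of 25, and deposited, per isoform and sample, FPKM values estimated with RSEM and scaled by TMM. The values do not settle whether RSEM's FPKM or TPM was taken. For the aligner, neither name nor version is given in the sources used here. The authors' DESeq calls were not used.

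Isoforms were added up to unigenes. Those reaching 1 FPKM in 3 or more of the 6 samples, 28536 in number, entered limma 3.58.1 (R 4.3.3, intensity trend, no block) on log2(FPKM + 1). A call needed a Benjamini-Hochberg adjusted p of 0.05 or less and a change of 2-fold or more. The test was checked on simulated data with planted changes. It recovered 82 of 100 unigenes changed by 2 on the log2 scale and 87 of 100 changed by 3, with 10 false calls. The changes were planted in well expressed unigenes only, so recovery of weak ones was not checked. They were also a much smaller share of the 28536 unigenes than the 13.5% called in these samples, so the rates need not carry over. An exact 0 can be a failed estimate, so such unigenes are listed at 0, with no fold. Python 3.11.15, numpy 2.4.6, pandas 2.3.3, scipy 1.17.1 and matplotlib 3.10.9 were used. The worth of 1 read came from low values of the same isoforms.

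The members and lists were chosen with earlier results of these data known. Unigenes named are the 5, their sisters, every measured unigene of the lists, and the 2 most alike to each member, besides those named after their values were seen. Alternatives were other pseudocounts, filters, scalings, the highest isoform, no trend, a replicate block, samples left out, and the adjusted p alone.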

Additional observations from a re-analysis of the deposited data

How the results depend on the processing

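The call counts over all unigenes (2061 higher and 1799 lower in T2Plus line) depended on the filter, with 753 and 1050 at a mean of at least 5 FPKM and 1073 and 1142 with no filter. Replicate numbers were not taken as pairs. Deviations of same-numbered samples correlated at 0.037, -0.033 and -0.066, and those of differently numbered samples at -0.08 to 0.108. Such values cannot show whether samples were handled in pairs. With the replicate block 1169 and 1146 unigenes were called. Leaving out 1 sample gave 1463 to 1947 higher and 1270 to 1628 lower. Rescaling to equal sums raised the median difference by 0.13 on the log2 scale and the share of higher among called unigenes to 58.5%, from 53.4%, and the mean filter of 5 FPKM moved them by -0.13 and to 41.8%. The 5 unigenes kept their direction under each pseudocount, scaling and left-out sample run, but this is not a check of that direction. They were chosen on this contrast and did not overlap between the lines, so neither a pseudocount nor a left-out sample could reverse them. DN16038 had a difference of 6.88 with a pseudocount of 0.1, 5.71 with 0.5, 4.68 after quantile normalization and 5.69 after rescaling, and DN13942 had -1.65 after quantile normalization. With 1 sample left out, the differences were -6.09 to -5.74 for DN37, -2.70 to -2.44 for DN13448, 4.91 to 5.005 for DN16038, -4.02 to -3.75 for DN5836 and -2.03 to -1.74 for DN13942. The study's other listed unigenes gave 4 to 5 higher and 10 to 11 lower with 1 sample left out, and the sisters 0. In counts added after the data were seen, the lists gave 3 higher and 8 lower without the fruit ripening list, and 4 and 8 without unigenes kept by the filter through 1 line only. The Swiss-Prot list gave 1 lower unigene, glutaredoxin-C2, in place of 0 with a pseudocount of 0.1 or 0.5 or the adjusted p alone, and 0 to 1 with 1 sample left out. Its limma adjusted p was above 0.05 with no filter, no trend or the replicate block, and without any single sample other than T2 replicate 1. Frataxin ranged from -0.37 to 0.33 with 1 sample left out, turning positive without T2Plus replicate 1 and, at 0.07, without T2 replicate 1. Glutathione S-transferase U17 ranged from -0.12 to 0.41, turning negative without T2Plus replicate 2 and, at -0.05, without T2 replicate 3. The cause of these shifts was not tested. The planned comparison of isoform shares could not be run, as each of the 5 has a single isoform row.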
